A study of Mus musculus with 16 samples.

Results

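Shh, Spon1, Vtn, Sulf1, Lmx1a, Lmx1b, Foxj1, T and Noto were examined as marker genes of the floor plate and the notochord, 9 rows of the 35976 in the gene table. These 9 genes, and the lists set beside them, were chosen with earlier results of these data known, so counts of calls among them are descriptive. They were read in 16 bulk 3′ RNA libraries from mouse neural tube organoids of day 4, grown from R1 embryonic stem cells that carry a FOXA2-Venus reporter and given retinoic acid for 18 hours. Cells were grouped by their FOXA2 expression into a negative, a low, a medium and a high gate, with 4 numbered libraries each, and all 4 gates share the line, the reporter and the treatment. BRB-seq, the method used, barcodes and pools samples early and reads the 3′ ends of transcripts. The labels do not say whether the numbers stand for separate cultures or whether the reporter line was a single clone, so the p-values reflect library-to-library spread that may be technical.

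The floor plate is the ventral midline of the neural tube, and the notochord is the rod of axial mesoderm beneath it. The notochord secretes Sonic hedgehog (SHH), which induces the overlying midline cells to switch on Foxa2 and then Shh themselves, so that the floor plate becomes a signalling centre in its turn. The 2 tissues share Foxa2 and Shh, while the transcription factors T (brachyury) and Noto mark the notochord and its precursors and not the mature floor plate. In an organoid grown from stem cells no notochord is supplied from outside.

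Totals ran from 3268948 to 9961032 counts per library, and levels are given as CPM, counts scaled to one common library total, of which 1 count made 0.306 in the shallowest and 0.1 in the deepest library. Foxa2, which set the gates, was checked first and averaged 2.91 ± 1.68, 11.9 ± 3.02, 52.0 ± 9.36 and 113 ± 18.2 CPM in the negative, low, medium and high gates (SD, n = 4 each). Of 11 markers of neural progenitors, 9 could be tested and 9 were lower in high-gate than in negative-gate libraries. Of all genes tested, 8.55% were called lower in that comparison. The summed level of the list was 88.8 to 128 CPM in the high libraries and 360 to 420 CPM in the negative ones. Pax6 and Pax3, genes of the dorsal and intermediate neural tube, are in this list, which thus mixes neural identity with position. Their means were 95.4 and 33.8 CPM in the negative gate and 23.7 and 5.46 CPM in the high gate. The neural markers Sox1 and Sox2 had 0 counts in all 16 libraries, as did 10251 genes of the table in all, so a count of 0 here cannot be read as the absence of a transcript.

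Of the 9 genes, 7 passed the filter on low counts and were tested: Spon1, Vtn, Sulf1, Lmx1a, Lmx1b, Foxj1 and T. Shh and Noto were too low to test. The filter asked for about 1.68 CPM in at least 4 libraries, which Shh reached in 0 libraries and Noto in 0. Vtn reached it in 11 libraries and T in 9, none of them in the negative gate for either gene, so these 2 passed through the gates in which they were high. In the high gate 5 of the 7 were called higher than in the negative gate and 0 lower (edgeR quasi-likelihood test, adjusted p under 0.05 over all genes tested); of 13891 genes tested, 8.42% were called higher in that comparison and 8.55% lower. Without Vtn and T the count was 3 of 5 (Spon1, Sulf1 and Lmx1b). The ranges of 5 of the 7 in the high gate lay wholly above those of the negative gate, beside 10.5% of all genes tested; for the medium gate 4 did, beside 6.13%, and for the low gate 2, T and Lmx1b, beside 4.04%. Vtn and T are among those of the high and medium gates, and T among those of the low gate, so these counts carry the same limit.

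**Figure D1:**
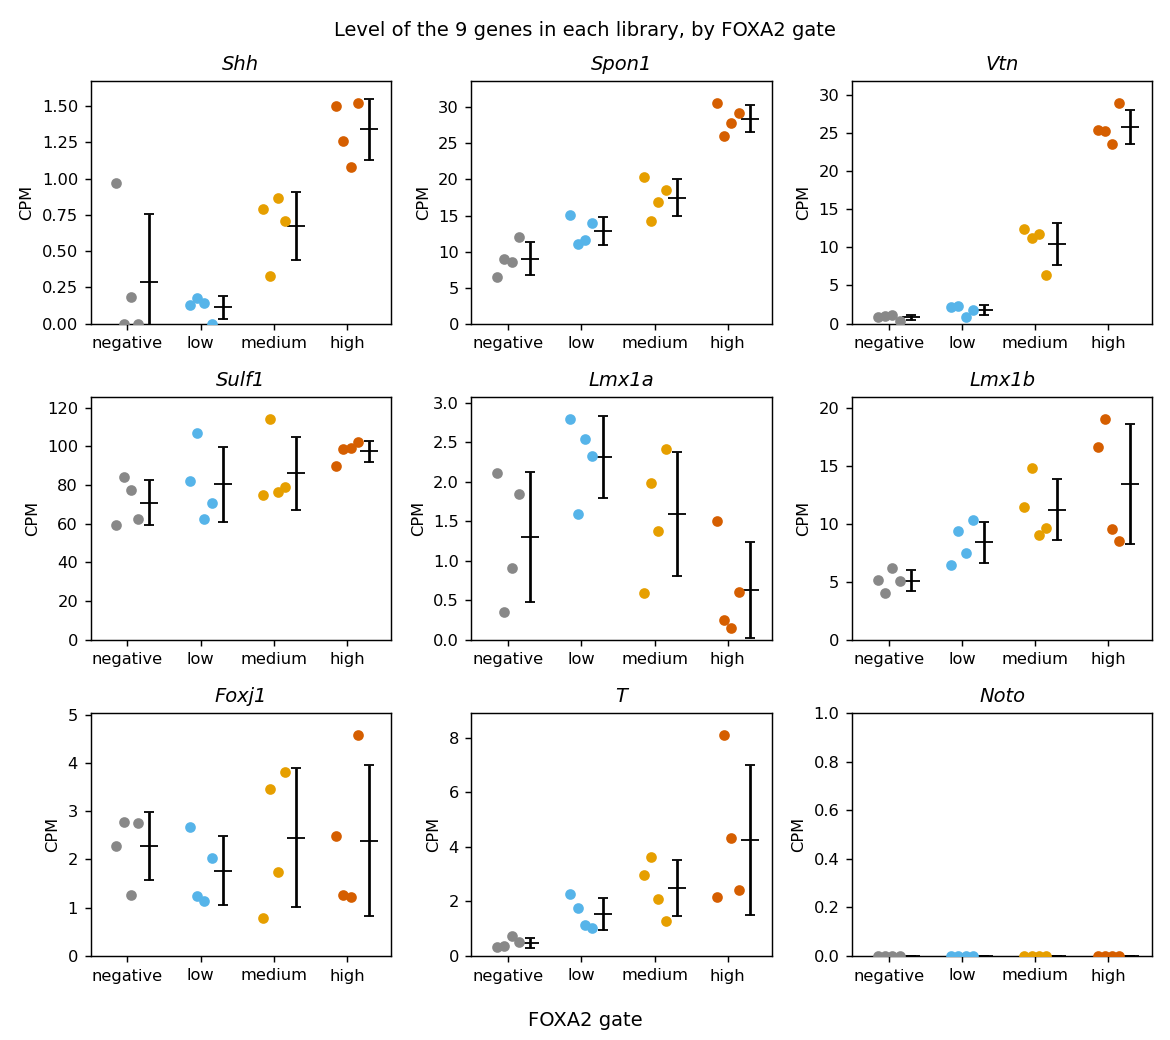
Level of each of the 9 genes in CPM (linear axes of different height) in every library, by FOXA2 gate. Points are single libraries in the order of their replicate numbers, and the bar beside them is the mean ± SD of 4 libraries; the 4 high libraries of Vtn lie between 23.6 and 28.9 CPM and the 4 negative ones between 0.307 and 1.09 CPM, while Noto is at 0 throughout.

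Shh encodes the secreted signal that patterns the ventral neural tube. The gene spans 28456815 to 28467256 of chromosome 5, minus strand (build GRCm38, as in all positions below, from GENCODE M21). Shh had 0.972, 0, 0.182 and 0 CPM in negative libraries 1 to 4, then 0.127, 0.177, 0.141 and 0 CPM in the low gate, 0.787, 0.330, 0.864 and 0.708 CPM in the medium gate and 1.50, 1.26, 1.08 and 1.52 CPM in the high gate. All 4 high libraries lay above every other library, and negative 1 alone held 6 of the 7 counts of its gate. In whole counts these were 7, 3, 16 and 26 summed over the negative, low, medium and high libraries. Pooled over a gate, that was 1.32 CPM in the high gate, with an exact Poisson 95% interval of 0.860 to 1.93 that covers counting error only, and 0.257 CPM (0.103 to 0.530) in the negative gate. When every gene with a count was fitted without the filter, the fitted log2 change for high against negative came to 2.20 (SE 0.973, adjusted p = 0.157), and that for high against low to 3.37 (SE 1.07, adjusted p = 0.0416). The latter rests on 26 counts against 3. Unadjusted p-values for high versus negative were also far smaller without the filter than with it (edgeR quasi-likelihood test). They were 2.94e-53 against 1.47e-15 for Vtn and 6.84e-08 against 4.79e-06 for T. Shh therefore stays among the genes too low to test.

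Shh shares 446 exonic bases with 9530036O11Rik, a noncoding gene on the opposite strand, and 361 with a second one, Gm26894. No source used here gives the strand setting of the counting, so reads within the shared bases cannot be told apart. The 3′ end of Shh, at 28456815, lies outside both noncoding genes, which start at 28458274 and 28466374. The first of these, named here after its values were seen, was better covered than Shh. Its mean was 0.799 ± 0.305 CPM for negative, 1.15 ± 0.459 for low, 4.00 ± 1.57 for medium and 7.69 ± 1.02 for high libraries (SD, n = 4 each). It was called higher in high-gate than in negative-gate libraries (log2 fold change 3.23, SE 0.411, adjusted p = 7.97e-07). Like Vtn and T, it reached the filter's minimum of about 1.68 CPM in no negative library, where its highest level was 1.04 CPM. It thus passed the filter through the gates in which it was high, and its call carries the same limit.

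Spon1 encodes F-spondin, a secreted matrix protein made by floor plate cells that promotes the outgrowth of commissural axons (chromosome 7, 113765998 to 114043370, plus strand). Spon1 had 30.6, 26.1, 27.9 and 29.2 CPM in high libraries 1 to 4, against 6.48, 9.03, 8.55 and 12.0 CPM in the negative libraries. In the low gate it had 15.1, 11.0, 11.6 and 13.9 CPM, and in the medium gate 20.3, 14.2, 16.9 and 18.6 CPM. The high libraries lay above all others, while the low and medium ranges overlapped, as did the low and negative ranges. The gene was higher in high-gate than in negative-gate libraries by 1.64 on the log2 scale (SE 0.187, adjusted p = 1.23e-07). It was also higher in medium-gate than in negative-gate libraries (0.94, SE 0.188, adjusted p = 0.00108) and in high-gate than in low-gate libraries (1.14, SE 0.181, adjusted p = 6.97e-05). Between neighbouring gates no step passed, and the last one, high versus medium, missed the threshold narrowly (0.70, SE 0.179, adjusted p = 0.0505) although its ranges did not overlap; it passed under 7 of 24 alternatives, DESeq2 among them (adjusted p = 0.0149, with a range of 0.0149 to 0.288 over all 24).

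Vtn encodes vitronectin, an adhesive glycoprotein of serum and extracellular matrix that is also made by the embryonic floor plate and notochord (chromosome 11, 78499091 to 78502324, plus strand). Vtn had 25.4, 25.3, 23.6 and 28.9 CPM in the high libraries, against 0.810, 1.04, 1.09 and 0.307 CPM in the negative libraries. It had 2.15, 2.30, 0.847 and 1.74 CPM in the low libraries and 12.4, 11.2, 11.8 and 6.37 CPM in the medium libraries. The high, medium and low ranges were all apart from each other, and the low range overlapped the negative one only through low 3. High against negative came to 5.06 on the log2 scale (SE 0.331, adjusted p = 1.45e-12), a fold of 33.3, and medium against negative to 3.75 (SE 0.342, adjusted p = 2.98e-09).

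Among the 7 tested genes Vtn was the single one called between neighbouring gates. It was higher in medium-gate than in low-gate libraries by 2.56 on the log2 scale (SE 0.297, adjusted p = 5.55e-06), where 0.490% of all genes tested were called higher and 0.223% lower. It was higher in high-gate than in medium-gate libraries by 1.31 (SE 0.243, adjusted p = 0.00301), where 0.367% were called higher and 0.547% lower. Low versus negative did not pass (1.19, SE 0.412, adjusted p = 0.119). The nearest coding gene downstream on the same strand, Sebox, starts at 78503447 and had 0 counts in every library.

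Sulf1 encodes an extracellular sulfatase that trims heparan sulfate chains and thereby changes how the matrix holds ligands such as SHH (chromosome 1, 12692277 to 12861192, plus strand). It was well covered in every gate. Sulf1 had 89.8, 98.4, 99.1 and 102 CPM in the high libraries, against 59.5, 84.2, 77.2 and 62.5 CPM in the negative libraries. The low libraries had 81.8, 107, 62.5 and 70.5 CPM and the medium libraries 74.8, 114, 76.4 and 78.9 CPM. The high range lay above the negative range, and low 2 and medium 2 were above every high library. High versus negative passed narrowly (log2 fold change 0.46, SE 0.154, adjusted p = 0.0389). The call was lost without negative 1 (0.38, adjusted p = 0.121), negative 4 (0.40, adjusted p = 0.119), high 1 (0.50, adjusted p = 0.0520), high 2 (0.45, adjusted p = 0.0762), high 3 (0.45, adjusted p = 0.0820) or high 4 (0.43, adjusted p = 0.0913). The other 5 comparisons of Sulf1 did not pass, with fitted changes from 0.10 for medium versus low to 0.29 for medium versus negative.

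**Figure D2:**
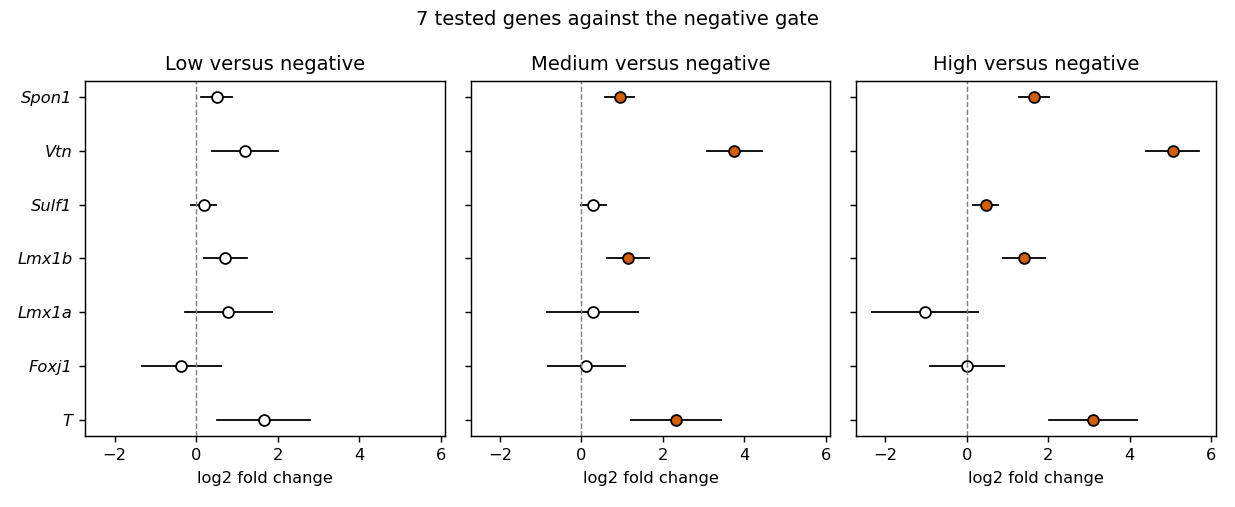
Fitted log2 fold change of the 7 tested genes in the low, medium and high gates against the negative gate, with approximate 95% intervals from the standard error (lines). Filled points were called by edgeR at an adjusted p under 0.05; none of the 7 was called for the low gate, 4 were called for the medium gate and 5 for the high gate.

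Lmx1a and Lmx1b encode related LIM homeodomain transcription factors. Both are expressed in the roof plate, and in the midbrain floor plate they act in the making of dopamine neurons. Lmx1b (chromosome 2, 33560965 to 33640511, minus strand) had 16.6, 19.0, 9.56 and 8.52 CPM in the high libraries, against 5.18, 3.99, 6.19 and 5.02 CPM in the negative libraries. The low libraries had 6.46, 9.36, 7.48 and 10.3 CPM and the medium libraries 11.4, 14.8, 8.99 and 9.63 CPM. The negative libraries were below all 12 others, and the high libraries fell into a pair near the medium minimum and a pair above the medium maximum. Lmx1b was higher in high-gate than in negative-gate libraries (log2 fold change 1.40, SE 0.264, adjusted p = 0.000271) and in medium-gate than in negative-gate libraries (1.14, SE 0.263, adjusted p = 0.00432). Low versus negative did not pass (0.72, SE 0.265, adjusted p = 0.159), nor did the steps above it (0.42 for medium versus low and 0.26 for high versus medium).

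Lmx1a (chromosome 1, 167689237 to 167848741, plus strand) had 156 counts over the 16 libraries and was not called in any comparison. It had 2.11, 0.347, 0.910 and 1.84 CPM in the negative libraries, 2.79, 1.59, 2.54 and 2.32 CPM in the low libraries, 0.590, 1.98, 1.38 and 2.41 CPM in the medium libraries and 1.50, 0.253, 0.154 and 0.609 CPM in the high libraries. The low libraries held the highest mean, 2.31 ± 0.516 CPM, and lay above all 4 high libraries, whose mean was 0.628 ± 0.611 CPM (SD, n = 4). High versus low gave -1.81 on the log2 scale (SE 0.632, adjusted p = 0.0867), and without high 1 it passed (-2.87, adjusted p = 0.0261, from 0.0261 to 0.256 over these alternatives). For high versus negative the fitted change was -1.02 with an approximate 95% interval of -2.32 to 0.28, and for Lmx1b in the same comparison the interval was 0.88 to 1.92.

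The roof plate, where both genes also act, was described by 10 other genes. Of 9 that could be tested, 5 were lower and 1 higher in high-gate than in negative-gate libraries, with a median log2 fold change of -1.37 against 0 over all genes tested. The WNT ligand Wnt1 (log2 fold change -3.56, SE 0.475, adjusted p = 1.8e-06), the zinc finger factor Zic1 (-2.25) and the homeobox gene Msx2 (-1.84) were lower, and the BMP ligand Bmp7 was higher (1.19). Gdf7, a roof plate ligand, had 0 counts in all gates. Summed over the list, levels were 179 to 197 CPM in the negative libraries, 299 to 354 in the low, 285 to 326 in the medium and 207 to 211 in the high ones. Rspo3 (-1.37) and Zic2 (-1.63), also lower, lost their calls when libraries were thinned to an equal total (-0.91 and -1.13), and Rspo3 also without negative 4, high 1 or high 3 and with only the 2 gates fitted, at -1.12 to -1.36.

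Foxj1 encodes the forkhead factor that switches on motile cilia, and it is expressed in the node and in the floor plate of the mouse (chromosome 11, 116330704 to 116335399, minus strand). It had 2.49, 1.26, 1.23 and 4.57 CPM in the high libraries, against 2.27, 2.78, 1.27 and 2.76 CPM in the negative libraries. The low libraries ran from 1.13 to 2.66 CPM and the medium libraries from 0.787 to 3.82 CPM, so all 4 ranges overlapped. High versus negative came to 0.00 on the log2 scale (SE 0.460, adjusted p = 0.997). The approximate 95% interval was -0.91 to 0.90, so changes within it, in either direction, are not excluded. No comparison of Foxj1 passed. Of 13 motile cilium genes, 6 could be tested, and 0 were higher and 3 lower in high versus negative libraries, namely Cfap43, Rsph1 and Spag6l, with log2 fold changes of -0.998, -1.52 and -1.37. This count fell to 0 without negative 1, negative 2, high 1, high 2 or high 4 and after thinning, and to 1 with no filter, with only the 2 gates fitted and without negative 3, negative 4 or high 3.

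T, or brachyury, is the T-box transcription factor of the primitive streak and the notochord (chromosome 17, 8434423 to 8442496, plus strand). T had 2.16, 8.09, 4.32 and 2.43 CPM in the high libraries, against 0.324, 0.347, 0.728 and 0.512 CPM in the negative libraries. It had 2.28, 1.77, 1.13 and 1.02 CPM in the low libraries and 2.95, 3.63, 2.07 and 1.27 CPM in the medium libraries. The negative libraries were below all others, and the high libraries spread most, with high 2 the highest of all 16. The log2 fold change was 3.09 for high versus negative (SE 0.554, adjusted p = 0.000143) and 2.32 for medium versus negative (SE 0.566, adjusted p = 0.00704). Without high 2 the first of these was 2.61 (adjusted p = 0.00177, the highest over its 24 alternatives, which reached down to 3.27e-06). The negative gate held 13 counts of T in all, and with all libraries thinned to an equal total the fitted change of high versus negative was 5.41. Low versus negative was 1.66 (SE 0.582, adjusted p = 0.126) and passed after thinning, and high versus low was 1.43 (SE 0.475, adjusted p = 0.0674, from 0.0429 to 0.37 over its alternatives) and passed without high 1 and with DESeq2.

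Other genes of the primitive streak and tail bud did not follow one direction. Of 12 genes 5 could be tested, and in the high gate 2 were higher and 2 lower than in the negative gate. Sp5, a WNT target, was higher (log2 fold change 3.18, SE 0.230, adjusted p = 1.36e-09), as was Cdx2 (1.44, SE 0.480, adjusted p = 0.0363). The call of Cdx2 was lost without any 1 of negative 2, 3 and 4 and high 1, 3 and 4. It was also lost with no filter (adjusted p = 0.0627) and after thinning (1.24, adjusted p = 0.172). The WNT ligands Wnt3 and Wnt3a were lower (-1.91 and -3.72). Of genes too low to test, the mesoderm factors Tbx6 and Mixl1 had 3 and 2 counts in all high libraries together and 4 and 5 in the negative ones. Eomes and Mesp1, also early mesoderm factors, had 10 and 15 in the high libraries and 34 and 54 in the negative ones, and Msgn1 and Evx1 had 0 in all gates.

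Noto encodes a homeobox factor of the node and notochord (chromosome 6, 85423886 to 85428877, plus strand). Noto had 0 counts in all 16 libraries. Pooled over the 4 high libraries, the exact Poisson 95% interval, which covers counting error only, ran from 0 to 0.187 CPM. As Sox1 and Sox2 were also at 0 throughout, this is a limit on counts in this table and not on the transcript.

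Promoters are shown for 3 of the genes called higher in both the medium and the high gate against the negative gate, and for Noto, which had no counts, so that the start regions can be set side by side. RefSeq promoters (GRCm38.p6, 250 bases before to 50 after the start site, 300 in all) were found for 5 of the 9 genes. They were searched on both strands for the forkhead core motifs TGTTTAC and TGTTTGC, the T-box half-site AGGTGTGA and the GLI site GACCACCCA, which do not contain one another. Capitals mark a match.
Vtn, chr11:78498870-78499169, plus strand: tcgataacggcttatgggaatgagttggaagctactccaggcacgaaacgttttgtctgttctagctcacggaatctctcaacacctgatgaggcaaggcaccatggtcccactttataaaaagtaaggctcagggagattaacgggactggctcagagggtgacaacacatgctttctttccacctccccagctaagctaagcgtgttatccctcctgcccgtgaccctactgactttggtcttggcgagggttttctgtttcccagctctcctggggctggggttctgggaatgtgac
Lmx1b, chr2:33641049-33641348, minus strand: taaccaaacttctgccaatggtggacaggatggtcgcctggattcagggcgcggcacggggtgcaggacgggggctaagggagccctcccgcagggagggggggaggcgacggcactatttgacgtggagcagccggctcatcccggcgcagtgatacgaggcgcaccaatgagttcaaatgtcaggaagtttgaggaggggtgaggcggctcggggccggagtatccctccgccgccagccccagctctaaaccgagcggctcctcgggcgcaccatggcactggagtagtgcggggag
T, chr17:8434173-8434472, plus strand: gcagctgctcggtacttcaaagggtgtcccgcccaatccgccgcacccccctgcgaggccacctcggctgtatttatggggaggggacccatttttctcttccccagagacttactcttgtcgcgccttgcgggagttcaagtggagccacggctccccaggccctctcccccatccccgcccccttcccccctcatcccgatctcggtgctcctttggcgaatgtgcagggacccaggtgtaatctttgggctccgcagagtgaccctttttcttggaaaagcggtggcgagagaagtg
Noto, chr6:85423636-85423935, plus strand: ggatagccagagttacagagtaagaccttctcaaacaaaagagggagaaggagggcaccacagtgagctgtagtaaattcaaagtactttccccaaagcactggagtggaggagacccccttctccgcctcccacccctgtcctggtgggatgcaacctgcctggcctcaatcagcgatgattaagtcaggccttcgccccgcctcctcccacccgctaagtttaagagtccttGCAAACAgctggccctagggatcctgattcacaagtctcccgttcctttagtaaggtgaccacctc

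The Noto window held 1 match, the forkhead motif TGTTTGC read on the other strand, 16 bases before the start site. The Vtn, Lmx1b, T and Lmx1a windows held none of the motifs. Of 32851 RefSeq promoters of this length, 8.48% held either forkhead motif, 1.28% the T-box half-site and 0.253% the GLI site. These letters are a description of the windows and say nothing of binding. The Lmx1b window, from 33641049 up, lies wholly upstream of the GENCODE gene, which reaches 33640511 on the minus strand. RefSeq and GENCODE thus place its start differently, and the window near the GENCODE start was not searched. The Lmx1a window, 167689308 to 167689607 on the plus strand, lies wholly downstream of the GENCODE start at 167689237. The bases before that start were not searched either. The windows differed in base composition: Vtn had 51.7% G and C with 9 CpG dinucleotides, T 61.7% with 17, Lmx1b 65.7% with 24 and Noto 54.0% with 6, beside medians of 52.7% and 7 over all promoters.

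**Figure D3:**
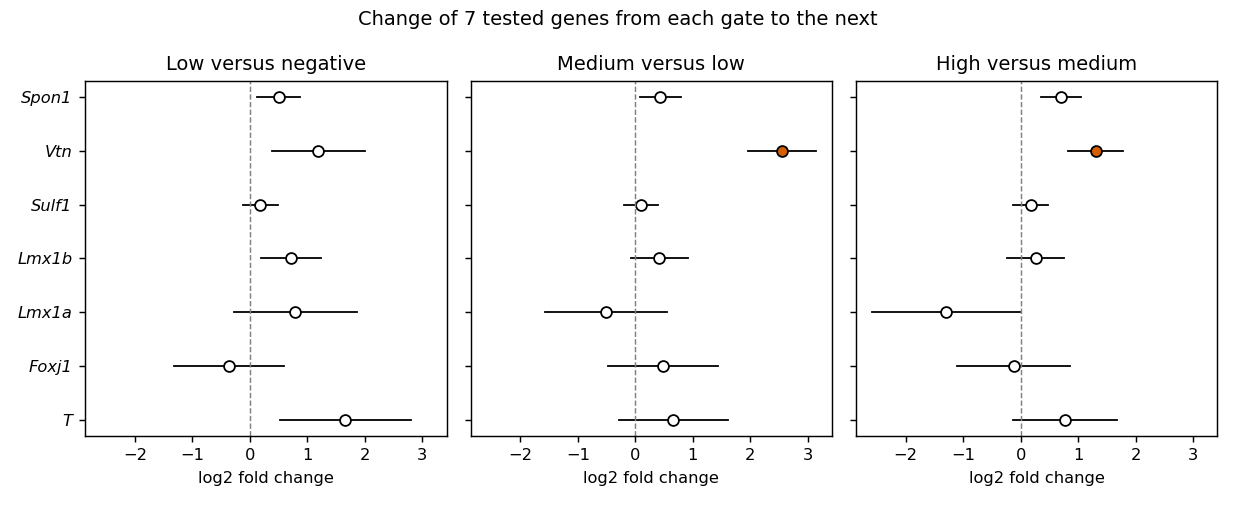
Fitted log2 fold change of the 7 tested genes from each gate to the next one up (low versus negative, medium versus low, high versus medium), with approximate 95% intervals (lines). Filled points were called by edgeR at an adjusted p under 0.05: Vtn was called for medium versus low (2.56) and high versus medium (1.31), and no other gene was called for a single step.

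Against the negative gate the count of called genes differed by gate. In the low gate 0 of 7 were called in either direction by edgeR, where 1.47% of all genes tested were called higher and 2.29% lower; at an unadjusted p under 0.05 there were 4 (Vtn, T, Lmx1b and Spon1, all with higher fitted values), and DESeq2 called 0. In the medium gate 4 of 7 were called higher, Spon1, Vtn, Lmx1b and T, and 0 lower, beside 4.24% and 4.22% of all genes. Without Vtn and T, which reached the filter's minimum in no negative library, Spon1 and Lmx1b remained of 5 tested. High versus low called 2 of 7 higher, Spon1 and Vtn, and 0 lower, beside 3.79% and 3.08%. These comparisons share libraries and are not independent of each other.

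Across the 16 libraries, Vtn and Spon1 had a Pearson correlation of 0.89 on the log2 CPM scale, Vtn and T 0.84, and Lmx1b and T 0.82, while Foxj1 stood between -0.22 and 0.30 with every other tested member. These coefficients describe libraries that differ chiefly by gate. Among the 6543 or 6544 genes compared, all averaging at least 20 CPM in a gate, those most like Vtn were Cldn6 (0.99), Smoc2 (0.97) and Igf1 (0.97). Those most like Spon1 were Gpc3, Eif1b and Elmo1 (0.94 to 0.95). T was most like Phldb2, Arhgef28 and Kif21a (0.91 to 0.92), and Lmx1b was most like Arhgef28, Cldn4 and Itpr2 (0.89 to 0.90). Sulf1 was most like Notch3, Fstl1 and Aff3 (0.87 each), Lmx1a like Plxna2, Zbtb16 and Meis1 (0.80 to 0.83), and Foxj1 like Hlcs, Hnrnpll and Zfp263 (0.75 to 0.80).

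Other genes known from the floor plate were set beside the 9. Of 11, 8 could be tested, and 6 were higher and 0 lower in high-gate than in negative-gate libraries, with a median log2 fold change of 1.23 against 0 over all genes tested. Foxa2 set the gates and is 1 of the 6, so its call was fixed in advance, and it also enters the median. Without Foxa1 the count was 5 of 7, with Foxa2 still among the 5. Apart from Foxa2 and Foxa1, those called higher were Nkx2-9, Ntn1, Slit1 and Slit3. Slit1, an axon repellent (0.62, adjusted p = 0.0234), lost its call after thinning and without negative 2, negative 4, high 1, high 3 or high 4 (0.52 to 0.60). The others include Foxa1, the paralogue of Foxa2 (4.88, SE 0.507, adjusted p = 2.12e-08), which like Vtn and T reached the filter's minimum in no negative library. They also include the ventral homeobox gene Nkx2-9 (3.26, SE 0.218) and the axon guidance cue Ntn1 (1.25, SE 0.195). Sulf2, the sister sulfatase of Sulf1, averaged 66.3 CPM in the high gate and 71.9 CPM in the negative gate (log2 fold change -0.12, adjusted p = 0.563). Of the genes too low to test, Corin had 2 counts in all high libraries together and 2 in the negative ones, and Ferd3l had 0 in all gates.

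Of 12 other genes of the notochord and axial mesoderm, 10 could be tested, and 7 were higher and 0 lower in high versus negative libraries. They include the keratin Krt19 (log2 fold change 2.71, SE 0.191, adjusted p = 6.77e-12), the cartilage and notochord factor Sox9 (2.09, SE 0.156), Krt18 (1.27, SE 0.128) and the BMP antagonist Chrd (3.07, SE 0.509), which reached the filter's minimum in no negative library. The call of Krt8 was lost without high 2 (0.36, adjusted p = 0.104), and that of Sox5 without any 1 of negative 1, 3 and 4 and high 1 and 4. Sox5 also lost its call after thinning (0.84, adjusted p = 0.0997). Col2a1, the collagen of notochord sheath and cartilage, averaged 65.8 CPM in the high gate and 71.9 CPM in the negative gate (adjusted p = 0.548). Gsc, an organizer gene, had 8 counts in all high libraries together and 12 in the negative ones, and the BMP antagonist Nog had 3 and 11.

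Genes that release SHH or respond to it were also listed. Of 11, 9 could be tested, and 3 were higher and 1 lower in high-gate than in negative-gate libraries. The receptor and target Ptch1 (log2 fold change 2.03, SE 0.196, adjusted p = 8.74e-08), the target Hhip (2.13, SE 0.455) and Disp1, which releases lipid-modified SHH (0.63, SE 0.211, adjusted p = 0.0367), were higher. Scube2, a secreted protein that aids release of SHH, was lower (-2.89, SE 0.399, adjusted p = 3.08e-06). The call of Disp1 was lost without any 1 of negative 2, negative 4, high 1, high 3 and high 4, and after thinning (0.77, adjusted p = 0.0618).

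**Figure D4:**
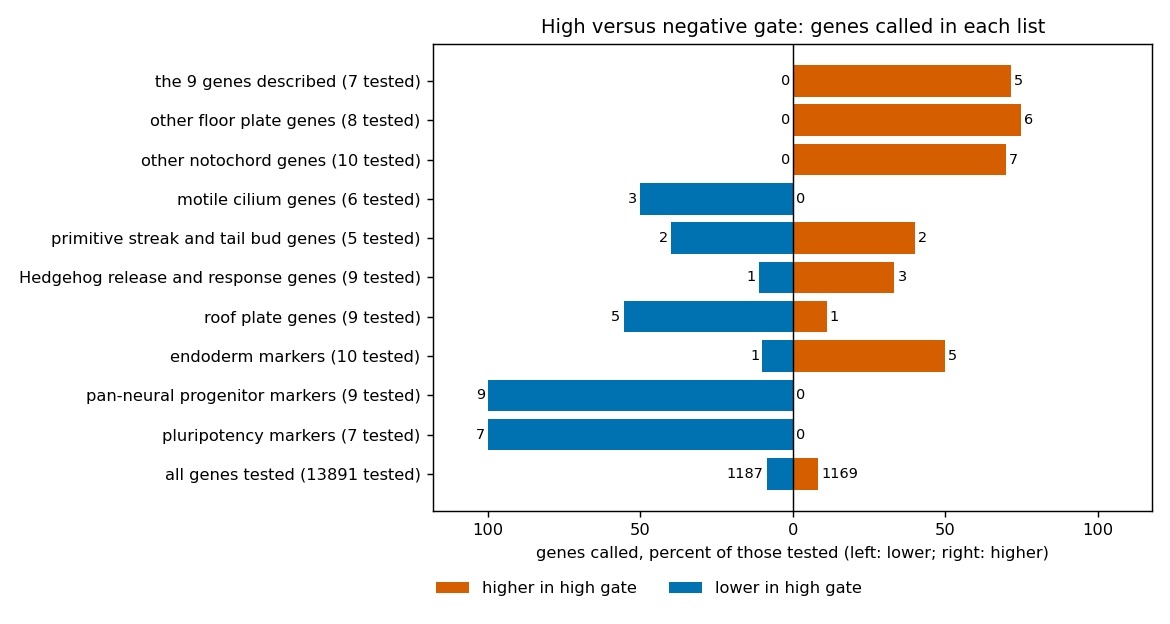
Share of the tested genes of each list that edgeR called higher (right) or lower (left) in high-gate than in negative-gate libraries, with the number called at the end of each bar. The 9 genes described had 5 higher and 0 lower of 7 tested, beside 1169 higher and 1187 lower of 13891 over all genes. Vtn and T are among the 5, and the other floor plate genes include Foxa2, which set the gates.

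Markers of other cell types moved over the same gates, and their part in the results above was not tested. Of 16 endoderm markers 10 could be tested, and in high versus negative libraries 5 were higher and 1 lower, with Sox17 (log2 fold change 3.50) and Cldn6 (2.21) among those higher. Summed over the list, levels were 1480 to 1650 CPM in the high libraries and 1800 to 2190 CPM in the negative ones. Apoe, a lipoprotein also made by many other cells, held most of this sum, with means of 1210 CPM in the high gate and 1930 CPM in the negative gate; the other 15 markers summed to 333 to 355 CPM in high and 67.7 to 72.4 CPM in negative libraries. Ttr, 1 of the 5 higher, reached the filter's minimum in no negative library. Of the markers too low to test, Gata6 had 44 counts in all high libraries together and 4 in the negative ones, Afp had 29 and 2, and Hnf4a had 0 and 2. Of 8 pluripotency markers 7 could be tested and 7 were lower in the high gate, with sums of 45.0 to 66.0 CPM in the high libraries and 533 to 897 CPM in the negative ones. In bulk libraries, more cells of a type and more RNA per cell cannot be told apart.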

How the data were processed

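Per the labels, RNA of 16 samples was measured by BRB-seq, and the authors deposited raw, unnormalized whole-number counts of 35976 genes in 1 table. Per the submitters' processing notes, cutadapt 1.18, STARsolo 2.7.9a, DESeq2 1.42.0 and the build GRCm38 were used; the annotation, strand setting and use of molecular identifiers are not stated there. Gate and number in each column's name gave its sample.

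Counts were fitted with edgeR 4.0.16 (limma 3.58.1, R 4.3.3): its expression filter (minimum count 10) kept 13891 genes, TMM factors ran from 0.97 to 1.05, and a robust quasi-likelihood model of the 4 gates over all 16 libraries tested 6 comparisons, with Benjamini-Hochberg adjustment over all genes tested and a threshold of 0.05. CPM are edgeR's counts per unit of TMM-scaled library size. Standard errors are the size of the log2 change over √F. DESeq2 1.42.0 served as an alternative, beside RLE scaling, no filter, a replicate block, thinning, libraries left out and 2-gate fits. The steps were tested on simulated data. Within gates the lowest chi-square per degree of freedom between 2 libraries was 4.31, so none was a duplicate. Coordinates come from GENCODE M21, in which all 9 genes were found, and promoters from RefSeq.

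The 9 genes and the lists were chosen with earlier results of these data known. All 9 were named whatever their result, with the 3 most correlated genes of each tested one and up to 4 genes per list by p in high versus negative; further genes of lists, and 9530036O11Rik, Gm26894 and Sebox, were named after their values were seen.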

Additional observations from a re-analysis of the deposited data

Results flagged for a closer look

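In 76 sets of 4 libraries examined, 9 genes, Foxa2 and 9 list sums in each of 4 gates, 2 had a library far from the other 3; chance alone would flag about 1 in 20 such sets. Sulf1 was at 114 CPM in medium 2, and the next highest medium library was at 78.9 CPM. The summed level of the genes that release or respond to SHH was 170 CPM in medium 2, and 113 CPM in the next highest. The cause was not tested, and no comparison of Sulf1 changed its call when medium 2 was left out.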

How the results depend on the processing

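Of 42 comparisons of a tested gene, 37 kept their call and, where called, their direction under all 24 alternatives. For high versus negative, the log2 fold change ran from 4.69 to 5.24 for Vtn, 1.51 to 1.83 for Spon1, 1.2 to 1.54 for Lmx1b, 2.61 to 5.41 for T and 0.38 to 0.55 for Sulf1. The counts of called genes changed in 4 comparisons. High versus negative had 4 higher in place of 5, without Sulf1, in 6 alternatives (without negative 1, negative 4 or any 1 high library). Low versus negative had 1 higher (T) after thinning in place of 0. High versus medium had 2 higher in place of 1, Spon1 joining Vtn, with DESeq2, no filter, the replicate block (Spon1 0.71, adjusted p = 0.0302) and only the 2 gates, and between 1 and 2 with a library left out (2 without negative 1, negative 4 or low 1). High versus low had 1 lower (Lmx1a) in place of 0 after thinning, and between 0 and 1 with a library left out (1 without high 1). It had 3 higher in place of 2 with DESeq2 and without high 1 (T) and with no filter (Shh). That value of Shh rests on 26 counts in the high gate and 3 in the low gate. The causes were not tested.

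Same-numbered libraries of different gates had correlated deviations over 0.1 in 13 of 24 pairs (median 0.144, from -0.204 to 0.572). Pairs of different numbers had a median of -0.048 and ran from -0.535 to 0.57, with 0.57 for negative 3 and medium 2 and 0.515 for low 1 and medium 2. Of 16 libraries, 11 correlated best with their own number. This is a hint of pairing from the data, not the design: not every pair was over 0.1 and no label gives the numbers a meaning, so the numbers were not taken as pairs. The block changed no other call of the 7 genes; of the motile cilium genes it left 1 lower in place of 3 (Spag6l adjusted p = 0.057, Rsph1 0.0529). Over all genes, low versus negative had 204 higher and 318 lower (124 and 203 thinned, 318 higher with no filter, 125 higher without negative 1, 207 lower without negative 2). High versus medium had 51 and 76: 83 higher with DESeq2, 87 and 135 with no filter, 30 and 43 thinned, 171 and 153 without low 1 and medium 2, and 29 to 113 and 46 to 121 with a library left out (113 and 121 without medium 2; the lowest without high 1). Medium versus low had 68 and 31: 106 and 55 with DESeq2, 120 and 69 with no filter, 39 and 18 with only the 2 gates, and 34 to 79 and 16 to 33 with a library left out (34 without low 3, 16 without medium 1). Medium versus negative had 586 lower (379 thinned), and high versus low 527 and 428 (350 and 269 thinned). The fit without robust estimation was chosen after the data were seen and changed no call of the 7 genes. Few counts lie behind Shh (52), Lmx1a (156), Foxj1 (219) and T (195, of which 13 in the negative gate).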
